A study of Mus musculus with 13 samples.

Results

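The 10 genes described here are protein-coding genes of the mouse mitochondrial genome (mtDNA), namely mt-Nd1, mt-Nd2, mt-Nd4, mt-Nd5, mt-Nd6, mt-Co1, mt-Co2, mt-Co3, mt-Cytb and mt-Atp6. They were chosen by name and found in the count files through their Ensembl gene identifiers. All 10 were among the 22442 genes of the ribosome profiling (Ribo-seq) files and among the 21898 genes of the ac4C RNA immunoprecipitation (acRIP-seq) files. The annotation lists 13 mtDNA protein genes, so mt-Nd3, mt-Nd4l and mt-Atp8 are the remaining ones. Footprints, here the RNase I-protected fragments counted on coding sequence (CDS), were found on 7 of the 10 genes and amounted to 869 over 11 libraries.

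The mtDNA codes for 13 proteins, all of them hydrophobic core subunits of the respiratory chain or of ATP synthase, and every other subunit is made from nuclear genes in the cytosol. Mitochondrial mRNAs are translated by mitochondrial ribosomes inside the organelle, which are not blocked by the cycloheximide used to hold cytosolic ribosomes in place. The oocyte holds by far the largest mtDNA stock of any mammalian cell and passes it on to the embryo through the maternal line. Complex I takes electrons from NADH, complex III passes them from ubiquinol to cytochrome c, complex IV reduces oxygen, and complex V makes ATP.

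The study asked how NAT10, the enzyme that writes the RNA mark N4-acetylcytidine (ac4C), acts in mouse oocyte maturation. Ribo-seq was made from WT oocytes at the germinal vesicle (GV) stage, when meiosis is arrested in prophase, from WT oocytes at metaphase II (MII), when they are ready for fertilisation, and from Nat10-ZcKO oocytes at both stages. Nat10-ZcKO females carry 1 floxed and 1 null Nat10 allele and Zp3-Cre, a Cre driven from growing oocytes of primary follicles onward, so their granulosa cells keep Nat10. All mice were C57BL/6J, each library came from a pool of oocytes, and the study's general methods describe collecting oocytes from juvenile females primed with gonadotropin, without naming these libraries. The series text also names tamoxifen, which Zp3-Cre does not require. There were 3 WT GV, 3 Nat10-ZcKO GV, 2 WT MII and 3 Nat10-ZcKO MII Ribo-seq libraries, and 1 anti-ac4C and 1 anti-IgG acRIP-seq library from WT GV oocytes. Nothing in the labels says that replicates came from separate females, so the p-values below measure only the spread between these libraries, which may be technical.

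Several libraries stood apart from their labels before any mitochondrial gene was considered. The total was 96142 to 279464 counts in WT GV, 42360 to 277124 in Nat10-ZcKO GV and 146726 to 187967 in Nat10-ZcKO MII, but the WT MII libraries held 134843 and 4815. Summed footprints on 12 oocyte marker genes were 6.53 to 9.04% of counts in WT GV, and 0.0283%, 1.76% and 12.8% in Nat10-ZcKO GV replicates 1, 2 and 3. Summed footprints on 16 adipocyte markers were 0.00619 to 0.0190% in WT GV, and 0.630%, 0.130% and 0.00686% in the same Nat10-ZcKO GV replicates, while 10 smooth muscle markers took 0.0697 to 0.101% in WT GV and 0.460%, 0.128% and 0.0729% in Nat10-ZcKO GV. Of the 16 adipocyte markers, 14, 11 and 9 had a count in Nat10-ZcKO GV replicates 1, 2 and 3, against 3 to 9 in WT GV. WT MII replicate 2 had 1 oocyte marker count and no count on any of 15 granulosa or cumulus markers. The targeted gene Nat10 itself had 8, 11 and 3 footprints in WT GV and 4, 1 and 5 in Nat10-ZcKO GV, with mean CPM (counts per 1000000 counts of the library) of 41.9 ± 12.1 (SD, n = 3) and 43.9 ± 43.7 (SD, n = 3), and the groups overlapped (log2 fold change -0.62, SE 0.99, adjusted p = 0.890 in the edgeR fit with no filter on low counts). Counts over the whole CDS do not show the deleted exons apart, so Nat10 footprints checked little here. For MII, Nat10 had 1 and 5 footprints in WT and 6, 3 and 2 in Nat10-ZcKO.

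On the GRCm38 mtDNA, all but mt-Nd6 lie on the plus strand and each has a single coding exon. Of the complex I genes, the CDS of mt-Nd1 (ENSMUSG00000064341) at chrM:2751-3704, mt-Nd2 (ENSMUSG00000064345) at chrM:3914-4948, mt-Nd4 (ENSMUSG00000064363) at chrM:10167-11544 and mt-Nd5 (ENSMUSG00000064367) at chrM:11742-13562 was on that strand, and mt-Nd6 (ENSMUSG00000064368) at chrM:13555-14070 was on the minus strand. The complex III gene was mt-Cytb (ENSMUSG00000064370) at chrM:14145-15288. The complex IV genes were mt-Co1 (ENSMUSG00000064351) at chrM:5328-6869, mt-Co2 (ENSMUSG00000064354) at chrM:7013-7693 and mt-Co3 (ENSMUSG00000064358) at chrM:8607-9390, and the complex V gene was mt-Atp6 (ENSMUSG00000064357) at chrM:7927-8604.

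The sequence of these genes is shown first because much of it is also found in the nuclear genome. The nuclear genome holds copies of mtDNA, and the largest in the reference genome GRCm38 lies at chr1:24611535-24616184 on the minus strand. Its 4650 bases match chrM:6394-11042, a stretch of 4649 bases, with 1 mismatch and 1 extra base. The copy begins inside mt-Co1 and ends inside mt-Nd4. The 30 bases around each end are given below in pairs, from mtDNA and from chromosome 1, because they show where a footprint-length read can be told apart. Capitals mark the bases that differ within a pair, and each sequence is written 5′ to 3′ along the mtDNA plus strand.

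mt-Co1 edge, mtDNA, chrM:6379-6408, plus strand: GtggTCtAAcCggaAttgttttatccaact

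mt-Co1 edge, chromosome 1, chr1:24616170-24616199, minus strand: AtggATtGGcAggaTttgttttatccaact

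mt-Nd4 edge, mtDNA, chrM:11028-11057, plus strand: tactcctcagttagcCaCaTaGCACTTGTT

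mt-Nd4 edge, chromosome 1, chr1:24611520-24611549, minus strand: tactcctcagttagcTaGaGaAAGTAGCCA

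The 15 bases inside the copy were the same in both members of each pair. Outside it, 7 of the 15 bases differed at the mt-Co1 edge and 12 of 15 at the mt-Nd4 edge.

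The first 30 bases of the CDS of the 3 genes without a count follow, with the start codon in capitals. All lie within the copied stretch, and none is found only once in the 22 reference chromosomes searched, mtDNA included.

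mt-Co2, chrM:7013-7042, plus strand: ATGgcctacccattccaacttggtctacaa

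mt-Co3, chrM:8607-8636, plus strand: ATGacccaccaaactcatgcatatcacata

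mt-Atp6, chrM:7927-7956, plus strand: ATGaacgaaaatctatttgcctcattcatt

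For comparison, 3 counted genes of complex I start with codons other than ATG, as is known for mammalian mtDNA, and their first 30 bases are found once in the genome.

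mt-Nd1, chrM:2751-2780, plus strand: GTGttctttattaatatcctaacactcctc

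mt-Nd2, chrM:3914-3943, plus strand: ATAaatcctatcacccttgccatcatctac

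mt-Nd5, chrM:11742-11771, plus strand: ATCaatattttcacaacctcaatcttatta

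mt-Nd6 is the only protein gene on the opposite, L strand transcript, and its mRNA is known to lack a poly(A) tail.

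mt-Nd6, chrM:14041-14070, minus strand: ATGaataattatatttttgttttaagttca

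mt-Co2 and mt-Co3, subunits of complex IV, and mt-Atp6, a subunit of the proton channel of ATP synthase, had 0 counts in all 11 Ribo-seq libraries and in both acRIP-seq libraries. A count of 0 allowed up to 10.7 CPM in the deepest Ribo-seq library (3 counts), up to 623 CPM in the shallowest one, and up to 3.09 CPM in the anti-ac4C library. The whole CDS of each of these genes (681, 784 and 678 bases) lay within the chromosome 1 copy, and 0% of their 30-mers were found once in the genome. At 150 bases the unique share was still 0% for all 3. mt-Atp8, mt-Nd3 and mt-Nd4l, which also lie wholly in the copied stretch, were at 0 in every library as well, and of these mt-Nd3 had 3 unique 30-mers of 316. All 6 mtDNA protein genes that lie wholly in the copy were therefore at 0, and all 7 that do not had counts. The study's methods state that uniquely mapped reads were counted for its RNA-seq, and for these files the handling of reads with several matches is not given in the sources used here. Its part in these zeros was not tested, so the zeros are not measurements of expression.

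The counted genes differed in the share of CDS 30-mers found once in the genome. It was 100% for mt-Nd1, 92.6% for mt-Cytb, 91.6% for mt-Nd6, 85.8% for mt-Nd2 and 82.1% for mt-Nd5. mt-Nd4, with 63.6% of its CDS in the copy, had 36.8%. mt-Co1 had 35.2%. The chromosome 1 copy held 30.9% of its CDS, and further stretches were shared with other nuclear sequence, among it chr2:22589595-22590200 and chr2:22589148-22589560 on the minus strand, the first of which holds the start codon. mt-Co1 still had the most footprints of any member, as the plot of counts against unique sequence shows.

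**Figure D1:**
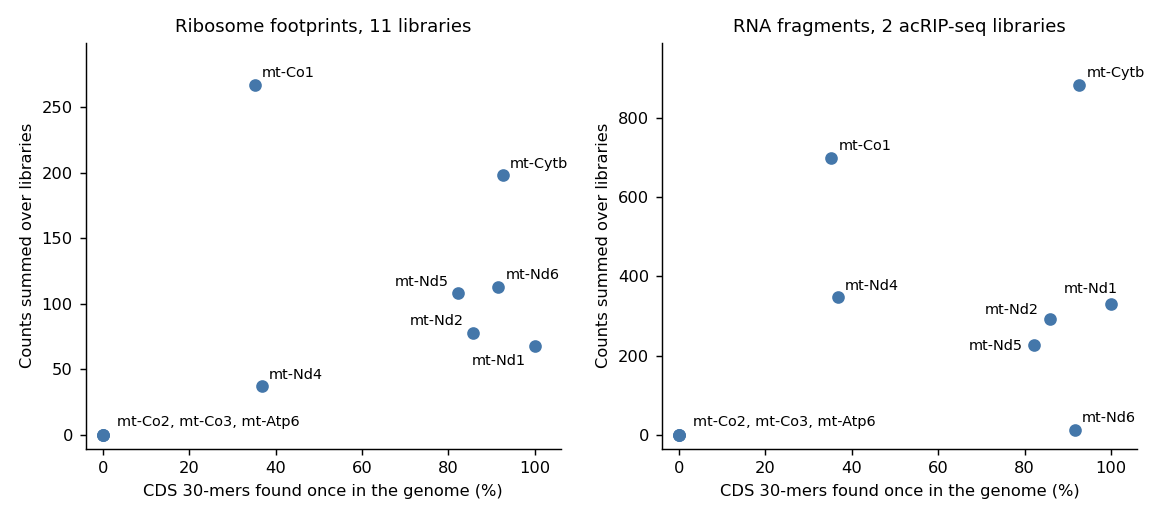
Counts of each gene summed over libraries (vertical axes; left, footprints in 11 Ribo-seq libraries; right, RNA fragments in 2 acRIP-seq libraries) against the percent of its CDS 30-mers found once in the genome (horizontal axes). mt-Co2, mt-Co3 and mt-Atp6 sit together at 0 on both axes. mt-Co1 has 267 footprints at 35.2%, and mt-Nd6 has 113 footprints but only 13 RNA fragments. The RNA fragments were longer than 30 bases, and at 150 bases 76.5% of the mt-Co1 CDS was unique.

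Summed over the 11 libraries, mt-Co1, the catalytic core of complex IV, took 267 footprints, which was 30.7% of the total on these genes. mt-Cytb, the cytochrome b of complex III, took 198 (22.8%). Among the membrane subunits of complex I, mt-Nd6 had 113, mt-Nd5 108, mt-Nd2 78, mt-Nd1 68 and mt-Nd4 37. Levels between genes were compared per length. Per kb of CDS, the sums were 219 for mt-Nd6, 173 for mt-Co1 and 173 for mt-Cytb, then 75.4 for mt-Nd2, 71.3 for mt-Nd1, 59.3 for mt-Nd5 and 26.9 for mt-Nd4. Per 1000 unique 30-mers, the order became mt-Co1 (501), mt-Nd6 (253) and mt-Cytb (192), followed by mt-Nd2 (90.4), mt-Nd4 (74.6), mt-Nd1 (73.5) and mt-Nd5 (73.4). The latter 4 were close together on that scale, but mt-Nd1 had 34 of its 68 footprints in Nat10-ZcKO GV replicate 2. Without that library the values were 76.5 for mt-Nd2, 56.4 for mt-Nd5, 52.4 for mt-Nd4 and 36.8 for mt-Nd1, and the first 3 places were unchanged at 452 for mt-Co1, 219.7 for mt-Nd6 and 166 for mt-Cytb. By counts per kb the first gene was mt-Co1 in 3 libraries, mt-Cytb in 3, mt-Nd6 in 3 and mt-Nd1 in 1, so the order at the top was not the same from library to library.

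The 10 genes together took a small and uneven share of the footprints. In WT GV the share was 0.0557%, 0.0454% and 0.0447% (mean 0.0486 ± 0.00613, SD, n = 3), the tightest group. In Nat10-ZcKO GV it was 0.0921%, 0.290% and 0.0794% (mean 0.154 ± 0.118, SD, n = 3), all above WT GV. WT MII replicate 1 had 0.0133% (exact binomial 95% interval 0.00791 to 0.0211%), and replicate 2 had none of 4815 counts, which allows up to 0.0623%. In Nat10-ZcKO MII the share was 0.0255%, 0.0511% and 0.0426% (mean 0.0397 ± 0.0130, SD, n = 3). Intervals and limits of this kind cover counting error only. Without Nat10-ZcKO GV replicates 1 and 2, the libraries with few oocyte and many adipocyte marker counts, the remaining Nat10-ZcKO GV library was at 0.0794% (interval 0.0692 to 0.0906%), and the highest WT GV library, at 0.0557%, had an interval of 0.0442 to 0.0692%. In bulk libraries such as these, fewer mitochondria or cells and less RNA on ribosomes per cell cannot be told apart.

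**Figure D2:**
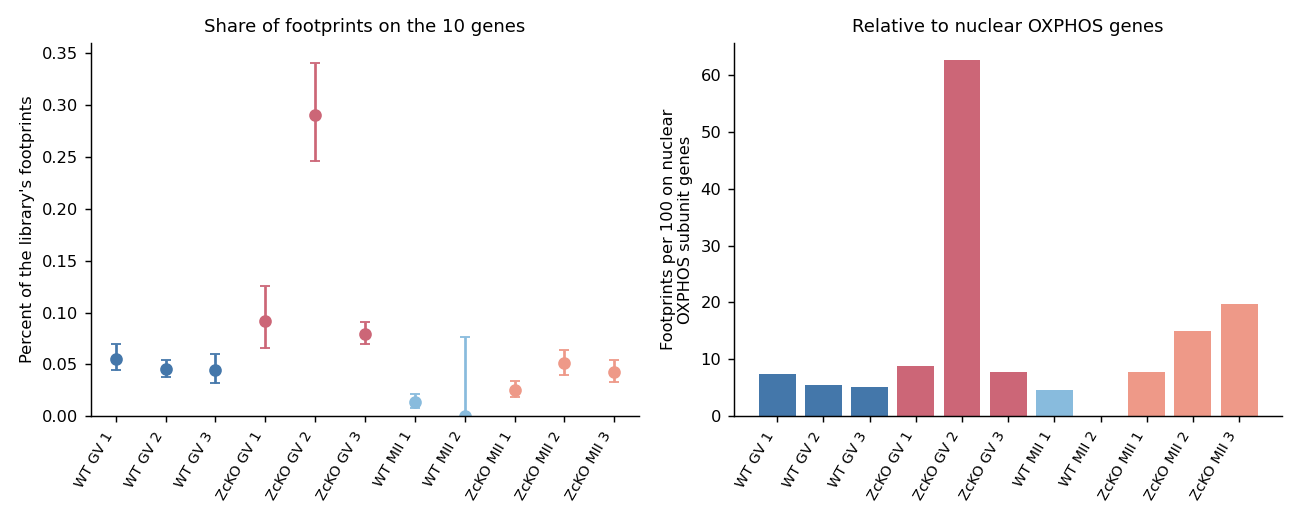
Left, percent of each library's footprints on the 10 genes together, with exact binomial 95% intervals; right, footprints on these genes per 100 footprints on 76 nuclear OXPHOS subunit genes, for each of the 11 libraries. The 3 WT GV libraries lie at 0.0447 to 0.0557%, and Nat10-ZcKO GV replicate 2 stands out at 0.290% and 62.5 per 100.

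Set against 76 nuclear genes for subunits of the same complexes (OXPHOS), the mitochondrial footprints numbered 7.48, 5.51 and 5.08 per 100 nuclear ones in WT GV. The Nat10-ZcKO GV libraries gave 8.78, 62.5 and 7.73, so replicates 1 and 3 lay just above the WT GV range and replicate 2 far from it. WT MII replicate 1 gave 4.58, from 18 mitochondrial and 393 nuclear counts. The Nat10-ZcKO MII libraries gave 7.82, 15 and 19.8.

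Among nuclear subunits the most counted was Atp5b, the catalytic subunit of ATP synthase, with 1086 footprints in all, more than the 869 on all mitochondrial members together. Cox4i1, a nuclear subunit of complex IV, had 56, 138 and 49 footprints in WT GV and 17, 20 and 137 in Nat10-ZcKO GV, while mt-Co1 had 23, 63 and 27 and 14, 26 and 73. Nat10-ZcKO GV replicate 2 thus held more mt-Co1 than Cox4i1 footprints and every other GV library held fewer. Sdha, the flavoprotein of complex II, which has no mitochondrially encoded subunit, had 35, 115 and 42 in WT GV and 26, 12 and 108 in Nat10-ZcKO GV.

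The first comparison asked whether loss of Nat10 changed these genes at GV. All 7 members with a count had a positive log2 fold change in Nat10-ZcKO in the fit with no filter on low counts, but with the filter no call was made. The edgeR quasi-likelihood test, on genes past its filter on low counts, tested 4 of the 10 members (median log2 fold change 1.78, against -0.06 for all 1765 genes tested) and called 0 of them at an adjusted p under 0.05. The background was 0% called, with 85 genes at an unadjusted p under 0.05, and DESeq2 called 9 genes higher (0.0694%), 2 lower (0.0154%) and no member. The 3 members that never had a count, and mt-Nd1, mt-Nd2 and mt-Nd4, did not pass the filter. That filter asks for a minimum level in as many libraries as the smaller group holds. mt-Nd6 reached it only in Nat10-ZcKO GV, so the median over the 4 tested members depends in part on the filter. Leaving out Nat10-ZcKO GV replicates 1 and 2 gave a median log2 fold change of 1.07 over 5 members tested, with 0 called, where the background was 0.980% higher. Nat10-ZcKO GV replicates 1 and 2 had low oocyte and high adipocyte marker counts. Replicate 1 was further from WT GV than replicate 2 in both kinds of marker. Granulosa or cumulus markers took 1.14%, 0.416% and 0.299% of counts in Nat10-ZcKO GV replicates 1, 2 and 3, against 0.459 to 0.581% in WT GV. The members' share was 0.0921% in replicate 1, 0.290% in replicate 2 and 0.0794% in replicate 3. The part of these marker counts in the result was not tested.

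mt-Nd6 had 34.4, 71.6 and 52.0 CPM at GV in WT and 142, 290 and 148 CPM in Nat10-ZcKO GV. The groups did not overlap, and mt-Nd6 was the only one of the 4 tested members of which that was true, with 3.23% of genes tested showing it. This is not independent of the filter, which mt-Nd6 passed only through Nat10-ZcKO GV, where it was high. The log2 fold change of mt-Nd6 was 1.92 (SE 0.59, adjusted p = 0.900, edgeR). With Nat10-ZcKO GV replicate 3 as the sole library of its group, the lone library being assumed to vary like the others, it was 1.59 (SE 0.46, adjusted p = 0.0515, edgeR).

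mt-Co1 had 158, 225 and 281 CPM in WT GV and 331, 503 and 263 CPM in Nat10-ZcKO GV. The groups overlapped, and the log2 fold change was 0.84 (SE 0.58, adjusted p = 0.900, edgeR). mt-Cytb had 172, 64.4 and 41.6 CPM in WT GV against 142, 522 and 173 CPM, which also overlapped (log2 fold change 1.64, SE 0.78). mt-Nd5, a proton-pumping subunit of complex I, had 96.2, 46.5 and 20.8 CPM against 118, 483 and 72.2 CPM, with a log2 fold change of 2.02 (SE 0.87). For both the adjusted p was 0.900 by edgeR.

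mt-Nd1, which forms part of the ubiquinone site of complex I, had 5, 2 and 0 footprints in WT GV (34.4, 7.16 and 0 CPM) and 4, 34 and 12 in Nat10-ZcKO GV (94.4, 658 and 43.3 CPM). In the fit with no filter on low counts it was the only member called, with a log2 fold change of 3.55 (SE 0.91, adjusted p = 0.0322, edgeR), where 0.223% of 13004 genes were called higher. It was also the member called with all 11 libraries in 1 fit (log2 fold change 3.78, SE 1.04, adjusted p = 0.0479, edgeR), where 0.595% were called higher, and with no filter and library size as the only scaling, where 0.531% were. Most of its footprints in the group came from replicate 2, and with replicate 3 as the sole Nat10-ZcKO GV library the log2 fold change was 1.82 (SE 0.97, adjusted p = 0.746, edgeR). mt-Nd2 had 55.0, 21.5 and 41.6 CPM in WT GV and 70.8, 232 and 72.2 CPM in Nat10-ZcKO GV. mt-Nd4 had 6.87, 17.9 and 10.4 CPM against 23.6, 213 and 21.7 CPM, from 1 to 5 footprints a library in WT GV. Counting all 7 detected members, 4 lay higher in every Nat10-ZcKO GV library than in every WT GV library, against 4.01% of all genes with a count. In Nat10-ZcKO GV replicate 1, mt-Nd4 rested on 1 footprint (exact interval 0.598 to 132 CPM) and mt-Nd2 on 3 (14.6 to 207 CPM). There mt-Nd1 had 4 (25.7 to 242 CPM) and mt-Nd6 had 6 (52.0 to 308 CPM). All 4 intervals reached below the gene's highest WT GV value, so the separation was within counting error. Replicates 1 and 2 of Nat10-ZcKO GV also had low oocyte marker counts. Of the 76 nuclear OXPHOS genes, 35 were tested and 0 were called, with a median log2 fold change of 0.03.

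**Figure D3:**
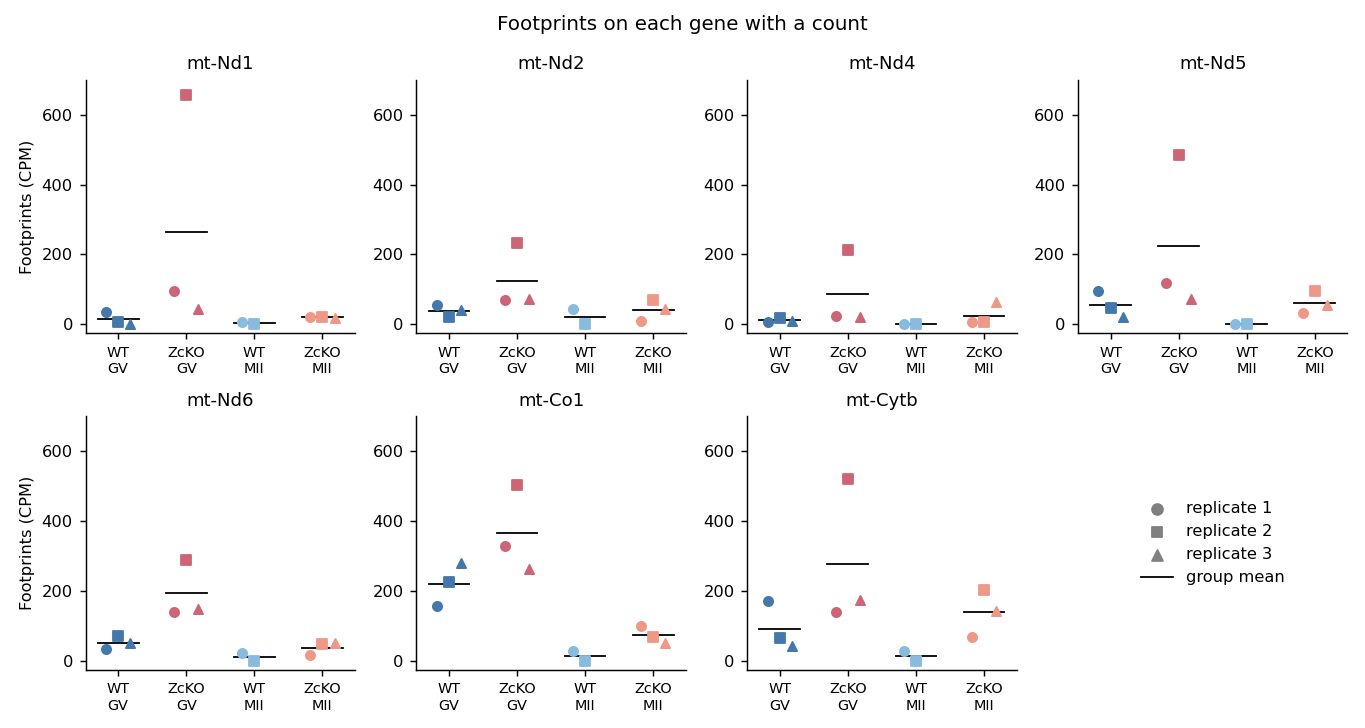
Footprints in CPM (vertical axis) on each of the 7 genes with a count in the 4 groups, 1 point per library by replicate number, with the group mean as a line. In each of the 7 panels Nat10-ZcKO GV replicate 2 is the highest of the 11 points, and WT MII replicate 2 lies at 0.

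The second comparison asked the same at MII. Only mt-Co1 and mt-Cytb passed the filter on low counts, and 0 of these 2 was called, where 0% of 2097 genes were called higher and 0.191% lower. Both passed it only through Nat10-ZcKO MII libraries, so their higher values in that group are not independent of the filter. The same was true of the members tested without WT MII replicate 2. There were 48 genes at an unadjusted p under 0.05, and DESeq2 called 24 genes lower (0.215%), none higher and no member. mt-Co1 had 29.7 and 0 CPM in WT MII and 101, 68.2 and 50.1 CPM in Nat10-ZcKO MII (log2 fold change 1.26, SE 1.14, adjusted p = 0.997, edgeR). mt-Cytb had 29.7 and 0 CPM against 69.2, 204 and 144 CPM (log2 fold change 2.21, SE 1.16, adjusted p = 0.997, edgeR). In both genes the 3 Nat10-ZcKO values lay above WT MII replicate 1, while the 0 of replicate 2 allows up to 623 CPM, above all 6 of them.

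The remaining members at MII had few footprints. mt-Nd5 and mt-Nd4 had none in either WT MII library, and 6, 14 and 9 and 1, 1 and 10 in Nat10-ZcKO MII. mt-Nd6 had 3 and 0 in WT MII against 3, 7 and 8, mt-Nd2 had 6 and 0 against 2, 10 and 7, and mt-Nd1 had 1 and 0 against 4, 3 and 3. Over the 7 detected members 5 lay higher in every Nat10-ZcKO library, against 14.3% of all genes with a count. Among the 5, mt-Nd4 had 5.32, 6.82 and 62.6 CPM in Nat10-ZcKO MII. The 0 of WT MII replicate 1 allows up to 22.2 CPM, above the lower 2 of these values. The 623 CPM that a 0 allows in WT MII replicate 2 lies above every other member value at MII. Without that library, 0 of 4 members tested was called, where 0.205% of genes were called lower and 0% higher, and mt-Cytb had a log2 fold change of 2.17 (SE 0.86, adjusted p = 0.888, edgeR) in the fit with no filter.

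The third comparison followed maturation from GV to MII in WT oocytes. mt-Co1 fell from 158, 225 and 281 CPM at GV to 29.7 and 0 CPM at MII, and the groups did not overlap. The 0 of WT MII replicate 2 allows up to 623 CPM, above all 3 GV values, so the lack of overlap rests on replicate 1. The log2 fold change of mt-Co1 was -2.52 (SE 0.96, adjusted p = 0.0434, edgeR), and it was the only member tested. It passed the filter only through the WT GV libraries, where it was high. The background was large, since 11.5% of 2045 genes were called lower and 9.98% higher, and the median log2 fold change of all genes tested was -0.44. With library size as the sole scaling that median was -0.77, the calls were 277 higher and 648 lower in place of 204 and 235, and mt-Co1 was at -2.91 (SE 0.79, adjusted p = 0.00151, edgeR). DESeq2 also called it (log2 fold change -3.53, adjusted p = 0.0455), with 2.09% of genes lower and 0.547% higher. The call was lost with no filter (adjusted p = 0.595, edgeR), with all 11 libraries in 1 fit (adjusted p = 0.154, edgeR) and under a replicate block (adjusted p = 0.9998, edgeR). The fits with no filter and with the replicate block called 0 of all 12057 and 2045 genes tested. The joint fit called 26 of 3863 genes lower. The mt-Co1 call was also lost without any 1 of the WT GV libraries (log2 fold change -2.74 to -2.43, adjusted p = 0.0910 to 0.661, edgeR). Without WT MII replicate 1 the fitted value was -7.95, set against the single library with no mt-Co1 count. In that fit the median of all 2455 genes tested was -6.85.

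With WT MII replicate 2 left out, 2 of 4 members tested were called lower, mt-Co1 (log2 fold change -2.76, SE 0.56, adjusted p = 0.000949, edgeR) and mt-Nd5 (adjusted p = 0.0434, edgeR), where 24.0% of genes were. Without a filter as well, mt-Co1 (log2 fold change -2.98, SE 0.63, adjusted p = 5.09e-05, edgeR) and mt-Nd5 (adjusted p = 0.0124, edgeR) were again called lower, where 7.53% of genes were. The same 2 members were called with both libraries, no filter and library size as the only scaling, where 3.72% of genes were called lower. With the filter, the members tested without WT MII replicate 2 passed only through WT GV libraries. mt-Nd5 had 96.2, 46.5 and 20.8 CPM in WT GV and none in WT MII replicate 1, where a 0 allows as much as 22.2 CPM. mt-Nd2 went the other way within its error, with 21.5 to 55.0 CPM at GV and 44.5 CPM in WT MII replicate 1 (log2 fold change 0.13, SE 0.88, adjusted p = 0.935, edgeR, without replicate 2). mt-Cytb, at 41.6 to 172 CPM in WT GV, had 29.7 CPM there (log2 fold change -1.78, SE 0.74, adjusted p = 0.104, edgeR). Of the 7 detected members 5 were lower in both WT MII libraries than in every WT GV library, against 23.7% of all genes with a count. Among the 5, mt-Nd4 had 6.87, 17.9 and 10.4 CPM in WT GV, below the 22.2 CPM that a 0 allows in WT MII replicate 1. The same was true of mt-Nd5 in WT GV replicate 3. The 0 of WT MII replicate 2 allows up to 623 CPM, above every member value in WT GV, so these zeros do not show a lower level. Among 40 nuclear OXPHOS genes tested, 12 were called lower and 0 higher, with a median log2 fold change of -1.52. With no filter 0 of 70 were called and the median was -2.42. That fit called 0 of all 12057 genes tested, whose median was -1.37. By complex the 12 were 7 of 19 for complex I, 0 of 3 for complex II, 3 of 6 for complex III, 0 of 7 for complex IV and 2 of 5 for complex V. Of 42 nuclear genes that replicate, transcribe or translate mtDNA, 6 were tested and 1 was called lower.

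The fourth comparison followed maturation in Nat10-ZcKO oocytes. mt-Co1 and mt-Nd6 were called lower, 2 of 5 members tested, where 6.02% of 2225 genes were called lower and 10.2% higher. mt-Nd6 passed the filter only through the GV libraries, where it was high. Of the 5, only mt-Cytb reached the filter's level in all MII libraries, so which members were tested depended on their GV level. mt-Co1 went from 331, 503 and 263 CPM to 101, 68.2 and 50.1 CPM (log2 fold change -2.46, SE 0.66, adjusted p = 0.0296, edgeR). mt-Nd6 went from 142, 290 and 148 CPM to 15.96, 47.7 and 50.1 CPM (log2 fold change -2.46, SE 0.73, adjusted p = 0.0399, edgeR). Neither gene overlapped between the stages. With Nat10-ZcKO GV replicate 3 as the only GV library, both were still called, at -2.16 (SE 0.56, adjusted p = 0.000720, edgeR) and -2.25 (SE 0.72, adjusted p = 0.00692, edgeR), where 19.6% of genes were called lower.

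mt-Nd5 (log2 fold change -1.88, SE 0.82, adjusted p = 0.116, edgeR), mt-Nd2 (-1.69, SE 0.80, adjusted p = 0.139, edgeR) and mt-Cytb (-1.11, SE 0.75, adjusted p = 0.287, edgeR) did not pass the threshold. mt-Cytb had the smallest log2 difference between stages, from 142, 522 and 173 CPM to 69.2, 204 and 144 CPM. mt-Nd1 did not pass the filter and had 94.4, 658 and 43.3 CPM at GV and 21.3, 20.4 and 18.8 CPM at MII. mt-Nd4 overlapped between the stages, at 23.6, 213 and 21.7 CPM and 5.32, 6.82 and 62.6 CPM. Of the 7 detected members 4 were lower in every MII library, against 8.92% of all genes with a count. Among 26 nuclear OXPHOS genes tested 11 were called lower and 0 higher (median log2 fold change -2.08; 8 of 11 for complex I and 1 of 4 for complex IV). With no filter 0 of 7 members and 2 of 70 nuclear OXPHOS genes were called lower, as were 108 of all 12702 genes tested. The calls of mt-Co1 and mt-Nd6 were both lost without Nat10-ZcKO GV replicate 2 (adjusted p = 0.0527 and 0.0799, edgeR), where 96 of 2780 genes were called lower. They were also lost when any 1 of the 3 Nat10-ZcKO MII libraries was dropped (adjusted p = 0.186 to 0.307, edgeR). Those 3 fits called 0 of all 3037, 3168 and 3136 genes tested. With library size as the only scaling both member calls held, and the calls over all genes were 299 higher and 108 lower in place of 226 and 134. mt-Nd1 was called lower, as the only member, by DESeq2 (log2 fold change -3.22, with 0.986% of genes lower and 2.67% higher), with all 11 libraries in 1 fit (-3.24, with 3.81% lower) and with no filter and library size alone (with 1.72% lower). Of its 50 GV footprints 34 came from replicate 2, and with replicate 3 as the only GV library and no filter the value was -1.29 (SE 1.16, adjusted p = 0.597, edgeR).

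Whether the stage effect differed between genotypes was tested as an interaction over all 11 libraries. Of 6 members tested 0 was called, where 0.0259% of 3863 genes were called higher and 0.880% lower, and 213 had an unadjusted p under 0.05. The log2 difference was 1.36 (SE 1.73) for mt-Co1, 1.51 (SE 1.66) for mt-Cytb and -0.31 (SE 1.83) for mt-Nd6, with adjusted p = 0.835, 0.832 and 0.963 by edgeR. The largest was mt-Nd5 at 4.55 (SE 2.63, adjusted p = 0.806, edgeR), which had no count in WT MII. DESeq2 called 3 genes higher (0.0220%), 51 lower (0.374%) and no member.

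The makeup of the mitochondrial footprints does not depend on scaling between libraries. In WT GV, complex I took 34.96 ± 6.51% (SD, n = 3) of the members' footprints, complex III 18.1 ± 11.3% and complex IV, here mt-Co1 alone, 46.9 ± 17.4%. Library by library, mt-Co1 took 28.4%, 49.6% and 62.8% for WT GV, overlapping the 35.9%, 17.3% and 33.2% for Nat10-ZcKO GV. In Nat10-ZcKO GV complex I took 52.8 ± 10.4% (SD, n = 3), with 48.7%, 64.7% and 45.0% in its libraries, against 40.7%, 36.2% and 27.9% in WT GV. These complex I shares did not overlap, and with replicate 3 alone the value was 45.0%, with an exact binomial interval of 38.3 to 51.8%, which reached below the highest WT GV value. In Nat10-ZcKO MII complex III took 27.1%, 40.0% and 33.8%, and complex IV 39.6%, 13.3% and 11.8%. WT MII replicate 1 had 18 footprints to divide, 10 on complex I, 4 on mt-Cytb and 4 on mt-Co1.

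**Figure D4:**
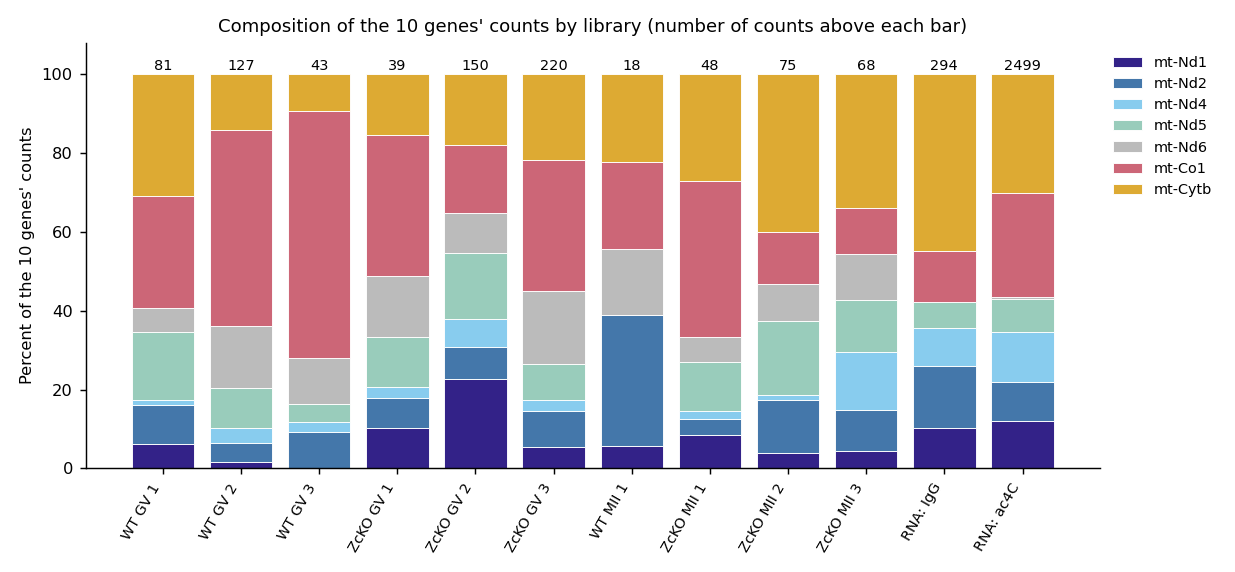
Percent of the 10 genes' counts on each of the 7 genes with a count (stacked colours) in 10 Ribo-seq libraries and in the anti-IgG and anti-ac4C acRIP-seq libraries of WT GV oocytes, with the number of counts above each bar; WT MII replicate 2 had none. mt-Co1 takes 28.4 to 62.8% of footprints in WT GV and 12.9% of anti-IgG RNA fragments, and mt-Nd6 is all but missing from the RNA bars.

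The acRIP-seq libraries gave RNA fragments of the same genes in WT GV oocytes, with 1 library each and therefore no replicate check. They were made from RNA captured by its poly(A) tail, then fragmented and pulled down. The anti-IgG library held 116232 counts and the anti-ac4C library 970997. The members took 0.253% (exact interval 0.225 to 0.284%) of the first and 0.257% (0.247 to 0.268%) of the second. The ratio of CPM between anti-ac4C and anti-IgG was 1.02 (interval 0.901 to 1.15) for the members together, below the median of 1.27 over 4680 genes with at least 50 counts, whose quartiles were 0.708 and 2.68.

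By gene, mt-Co1 had the highest ratio that could be computed, 2.09 (interval 1.50 to 2.97, from 662 and 38 counts). It was above 2, as were 32.8% of the 4680 genes, but its lower bound was not. mt-Nd4 had 1.31 (0.896 to 1.99), mt-Nd5 1.31 (0.818 to 2.22) and mt-Nd1 1.20 (0.821 to 1.81), which did not differ from one another beyond counting error. mt-Cytb, from 752 and 132 counts, had 0.682 (0.566 to 0.827), and mt-Nd2 had 0.640 (0.466 to 0.897). The interval of mt-Co1 did not overlap those of mt-Cytb and mt-Nd2. mt-Nd6 had 13 counts in the anti-ac4C library and 0 in anti-IgG, where 0 allows up to 25.8 CPM, above the 13.4 CPM seen with anti-ac4C, so no ratio was given.

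**Figure D5:**
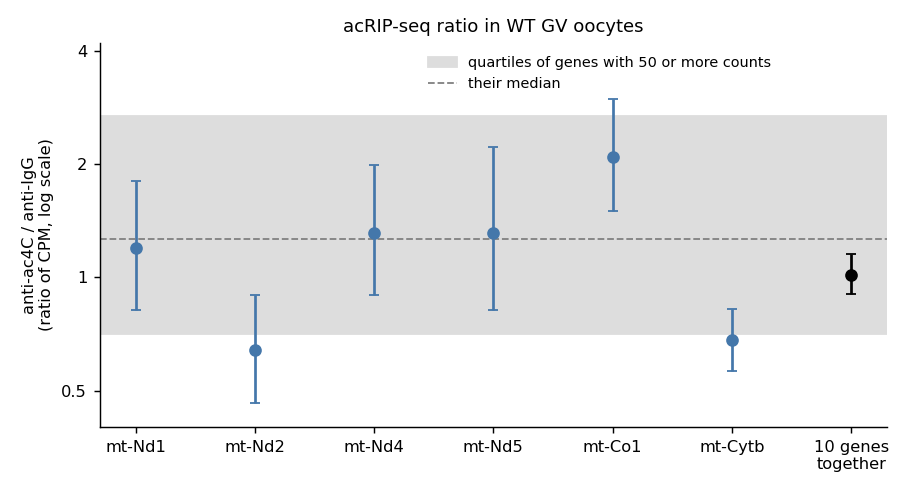
Ratio of CPM between the anti-ac4C and anti-IgG libraries of WT GV oocytes (vertical axis, log scale) for 6 genes and for the 10 genes together, with exact binomial 95% intervals; the grey band spans the quartiles of 4680 genes and the dashed line is their median of 1.27. mt-Co1 lies at 2.09, mt-Cytb at 0.682 and mt-Nd2 at 0.640.

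Footprints and RNA fragments were then set side by side in WT GV. The members took 0.0486% of footprints and 0.253% of anti-IgG fragments, a ratio of 0.192. The anti-IgG fragments came from a control pull-down rather than input RNA and were counted on protein-coding genes, not on CDS. The ratio therefore does not measure translation per RNA. Within the members, mt-Co1 took 46.9 ± 17.4% of footprints (SD, n = 3), 12.9% of anti-IgG fragments (interval 9.31 to 17.3%) and 26.5% of anti-ac4C fragments, so the ratio of the shares was 3.63 against the first and 1.77 against the second. The lowest WT GV value, 28.4%, was close to the anti-ac4C share. mt-Cytb took 18.1 ± 11.3% of footprints, 44.9% of anti-IgG fragments (interval 39.1 to 50.8%) and 30.1% of anti-ac4C fragments, with 30.9% of footprints in WT GV replicate 1 and less in the other libraries.

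Among the complex I genes, mt-Nd1 took 2.58 ± 3.21% of footprints, and 10.2% and 12.0% of anti-IgG and anti-ac4C fragments. mt-Nd4 took 2.50 ± 1.36%, and 9.86% and 12.7%. Both genes were lower in every WT GV footprint library than in either RNA library. mt-Nd2 took 7.97 ± 2.82% of footprints, and 15.6% and 9.84% of fragments, while mt-Nd5 took 10.7 ± 6.33%, and 6.46% and 8.32%. The closest match of shares was thus mt-Nd5 against anti-IgG and mt-Nd2 against anti-ac4C.

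mt-Nd6 took 11.2 ± 4.80% of WT GV footprints (SD, n = 3), with 5, 20 and 5 counts, but 0% of anti-IgG fragments (interval up to 1.25%) and 0.520% of anti-ac4C fragments. The 3 WT GV footprint shares of mt-Nd6, 6.17%, 15.7% and 11.6%, all lay above both RNA values. The share of mt-Nd6 30-mers found once in the genome was 91.6%, close to the 92.6% of mt-Cytb, which had the most fragments. Poly(A) capture preceded the RNA libraries and not the footprint libraries, and its part in this gap was not tested. mt-Nd6 overlaps the end of mt-Nd5 on the other strand (chrM:13552-14070 and chrM:11742-13565), and whether the counting used strand is not given in the sources used here.

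Of 799 genes with enough counts, those whose log2(CPM + 10) followed the members' summed level most closely over the 11 libraries were Rrbp1, a ribosome-binding protein of the endoplasmic reticulum (Pearson r = 0.96), Tdrd5, a Tudor domain protein of germ cells (0.96), Incenp of the chromosomal passenger complex (0.96), Sf3b3 of the spliceosome (0.95) and Chaf1a of chromatin assembly factor (0.94). Without WT MII replicate 2, where each of them and all members were at 0, the values for the same 5 genes fell to 0.81 to 0.86. These points share library depth, and none of the 5 is a mitochondrial gene.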

How the data were processed

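Ribo-seq and acRIP-seq counts per gene were deposited by the authors as raw read counts, with 1 file per library: Ribo-seq counts on CDS, acRIP-seq counts on protein-coding genes. The submitters' processing notes name cutadapt, STAR, HTSeq and mm10. Versions, annotation release, strand setting and multi-read handling are not given in the sources used here. Identifiers were matched to GENCODE M21 (22399 of 22442). CPM used the total of each library, and the summary lines of the acRIP-seq files (such as 46.7% and 17.1% of reads on no feature) were left out.

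Comparisons used edgeR 4.0.16 (filterByExpr, TMM, quasi-likelihood test, Benjamini-Hochberg over all genes tested, threshold 0.05), with groups from the labels; DESeq2 1.42.0, other scalings, no filter, a replicate block, a joint fit and leaving out libraries were alternatives. Simulated counts with known large changes in well-counted genes, and the same dispersion for all genes, were used to check the fit code. They were more uniform than these libraries, so they do not show how the fits perform on members with few counts. Shares carry exact Clopper-Pearson 95% intervals, and a 0 allows 3 counts. Every 30-mer of GRCm38 mtDNA was searched on both strands of the 22 chromosomes. Sequences are from the RefSeq GRCm38 assembly. No library was counted as a duplicate, since replicates differed beyond sampling noise (chi-square per degree of freedom 5.43 or more). All members are named with every library; nuclear genes were named by highest counts in their list, and pattern genes by correlation. The members and lists were chosen with earlier results of these data known.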

Additional observations from a re-analysis of the deposited data

How the results depend on the processing

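Over 18 gene and comparison pairs, 257 refits gave 228 with the same direction and side of the threshold, 24 that lost a call, 1 that gained one and 4 that changed sign. The sign changes were all in the interaction, for mt-Nd6 with no filter (0.28) and, without WT MII replicate 1, for mt-Nd1 (1.07), mt-Nd2 (4.37) and mt-Nd6 (4.08), against ranges when leaving out libraries that began at -3.60, -1.68 and -1.001. There the 4815 counts of WT MII replicate 2 stood for its group. For Nat10-ZcKO against WT at GV, 1 member was called, mt-Nd1, in place of 0 with no filter, with no filter and library size only, and with all 11 libraries in 1 fit; leaving out any library gave 0. At MII, leaving out any Nat10-ZcKO MII library gave 0. Without WT MII replicate 1, the 4815 counts of replicate 2 stood for the group. There mt-Cytb had a log2 fold change of 7.23, where the median of all genes tested was 6.52. For MII against GV in WT, in place of 1 there were 0 with all 11 libraries in 1 fit, with no filter and under the replicate block, 2 with no filter and library size only or with WT MII replicate 2 left out, and 0 to 2 when leaving out libraries. For the same in Nat10-ZcKO, in place of 2 there was 1, mt-Nd1, with DESeq2, with all 11 libraries in 1 fit, and with no filter and library size only. There were 0 with no filter and under the replicate block, and 0 to 3 when leaving out libraries. The 3 came without Nat10-ZcKO GV replicate 3, where 298 of 2921 genes were called lower. The cause of these changes in the calls was not tested. Calls over all genes moved widely as well: in WT from 439 to between 0 and 1902, in Nat10-ZcKO from 360 to between 0 and 1445, at GV from 0 to up to 385, at MII from 4 to between 0 and 1451, and in the interaction from 35 to between 0 and 948. The replicate numbers did not pair the libraries (correlations of deviations -0.04 to 0.15), and the replicate block changed no other call on the members.

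Without the 10 genes with the most counts in the denominator, the members' share was 0.0748% in WT GV and 0.0577% in Nat10-ZcKO MII; leaving out a library gave 0.0451 to 0.0506%, 0.0857 to 0.191%, 0 to 0.0133% and 0.0341 to 0.0468% in WT GV, Nat10-ZcKO GV, WT MII and Nat10-ZcKO MII. The members' anti-ac4C to anti-IgG count ratio was 8.5 unscaled, from a depth ratio of 8.35, and 1.13 with TMM. Of the members with a ratio, 1 was above 2, mt-Co1, and 0 had a lower bound above 2. The footprint to fragment ratio was 0.243 per unique 30-mer. The RNA fragments were longer than 30 bases, and at 150 bases 76.5% of the mt-Co1 CDS was unique, so this scaling is not exact for the fragments. The fits with Nat10-ZcKO GV replicate 3 alone, those that joined no filter with another scaling or a left-out library, and the shares and counts per unique 30-mer without a library were added after seeing the data. Depth limits every value, since 251, 409, 18 and 191 member footprints stood behind the 4 groups.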
